A study of Mus musculus with 2 samples.

Results

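The NF-kB family of transcription factors has 5 subunit genes in the mouse, Rela, Rel, Relb, Nfkb1 and Nfkb2. They were chosen by gene symbol, matched through the transcript table to 1 gene identifier each, and form 5 of the 55536 genes in the gene tables. RNA was measured in bone-marrow-derived macrophages of C57BL/6J mice, cells grown from marrow progenitors. The cells were exposed to Lipid A at 100 ng/ml for 12 h, left without it for 12 h after washing, and exposed again at 100 ng/ml for 10 min. Lipid A anchors lipopolysaccharide in the outer membrane of Gram-negative bacteria and is recognised by the receptor TLR4. The labels call the RNA nucleoplasmic and its compartment the nucleus, and ribosomal RNA had been depleted. There were 2 libraries, biological replicates 1 and 2 of this single condition. Replicate 1 started from 1 µg and replicate 2 from 500 ng of nucleic acid. Both libraries carry the same donor identifier but separate biosamples. Nothing in the labels says that they came from separate cultures or animals, so the spread between them may be technical. Untreated cells, other times and other fractions were not used here, so the data hold no contrast between conditions and say nothing about what Lipid A changed.

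NF-kB dimers wait in the cytoplasm bound to IkB proteins. Signals from TLR4 activate the IKK kinase complex, IkB is degraded, and the dimers enter the nucleus and bind kB motifs in DNA. All 5 subunits share a Rel homology domain for dimerisation and DNA binding. RelA, c-Rel (from Rel) and RelB also carry transactivation domains. Nfkb1 and Nfkb2 encode the precursors p105 and p100, which are trimmed by the proteasome to the DNA-binding proteins p50 and p52 and whose C-terminal ankyrin repeats act like an IkB. Genes of this family, and those of several IkB proteins, are themselves known targets of NF-kB.

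Promoter windows were taken from RefSeq on GRCm38.p6 (mm10), from 250 bases before to 50 bases after a gene's start, because the known feedback of NF-kB on its own genes runs through kB motifs near starts. Windows were matched by symbol for Rel, Rela and Nfkb2, 3 of the 5 genes, and not for Nfkb1 and Relb. The kB consensus was searched on both strands as 3 G, a purine, any 2 bases, 2 pyrimidines and 2 C, a length of 10 bases. Capitals mark every match. The windows shown are those of Rel (chr11:23770920-23771219, minus strand), Rela (chr19:5637291-5637590, plus strand), the upstream start of Nfkb2 (chr19:46304487-46304786, plus strand) and its downstream start (chr19:46305445-46305744, plus strand), each written 5′ to 3′ along its gene.
Rel: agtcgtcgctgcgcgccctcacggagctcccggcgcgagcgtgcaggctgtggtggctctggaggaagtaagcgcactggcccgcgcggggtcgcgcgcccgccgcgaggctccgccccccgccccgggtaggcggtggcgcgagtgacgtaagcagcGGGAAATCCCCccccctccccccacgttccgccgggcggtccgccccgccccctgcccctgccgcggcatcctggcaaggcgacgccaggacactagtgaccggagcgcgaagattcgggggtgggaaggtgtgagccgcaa
Rela: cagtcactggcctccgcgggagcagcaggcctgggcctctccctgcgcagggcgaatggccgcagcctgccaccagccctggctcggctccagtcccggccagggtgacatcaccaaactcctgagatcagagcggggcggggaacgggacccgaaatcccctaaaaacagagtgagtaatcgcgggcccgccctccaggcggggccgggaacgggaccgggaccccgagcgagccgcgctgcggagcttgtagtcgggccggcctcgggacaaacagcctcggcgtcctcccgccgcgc
Nfkb2 upstream start: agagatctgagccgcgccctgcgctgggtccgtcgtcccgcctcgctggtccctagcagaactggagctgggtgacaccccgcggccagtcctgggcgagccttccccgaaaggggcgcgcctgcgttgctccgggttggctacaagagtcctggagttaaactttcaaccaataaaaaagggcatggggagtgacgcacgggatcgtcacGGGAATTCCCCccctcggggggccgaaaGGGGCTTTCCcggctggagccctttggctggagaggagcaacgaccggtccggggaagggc
Nfkb2 downstream start: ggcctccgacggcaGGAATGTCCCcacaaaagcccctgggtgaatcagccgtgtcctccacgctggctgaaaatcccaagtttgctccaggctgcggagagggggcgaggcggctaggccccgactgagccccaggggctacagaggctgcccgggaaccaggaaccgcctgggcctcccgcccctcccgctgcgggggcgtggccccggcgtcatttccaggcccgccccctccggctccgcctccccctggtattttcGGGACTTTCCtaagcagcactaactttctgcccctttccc

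The Rel window held GGGAAATCCC at position −92 from the RefSeq start, a match on both strands, and the overlapping GGAAATCCCC at −91, a match on the minus strand of the window. The upstream Nfkb2 window held 3 match positions. These were GGGAATTCCC at −39 (both strands), the overlapping GGAATTCCCC at −38 (minus strand of the window) and GGGGCTTTCC at −11 (plus strand of the window). The downstream Nfkb2 window held GGAATGTCCC at −236, a match on the minus strand of the window, and GGGACTTTCC at 11, a match on its plus strand, counting the start as 1. A further Nfkb2 window (chr19:46305680-46305979) overlaps the downstream one, and its single match, at −225, is the same GGGACTTTCC. No match was found in the Rela window. Of 32851 windows of 300 bases over all genes, 8.46% held a match, and of 27025 genes with a window 9.55% did. A match is a run of letters and not a measured binding site.

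All 5 genes were detected in both libraries, meaning 1 TPM or more and 10 expected counts or more. The same held for 42.9% of 22028 protein-coding genes. TPM is a level per length that the authors scaled to the same total over all targets in each library, and an expected count is the number of reads that the authors' model assigned, which can be fractional. The depth on genes was 24444219 expected counts for replicate 1 and 18051097 for replicate 2. Of 14 macrophage markers, 13 were detected, with a summed TPM of 3632 and 3298 in replicates 1 and 2. No marker of B and plasma cells (0 of 6), T and NK cells (0 of 6), neutrophils (0 of 6) or fibroblasts (0 of 5) was detected, and Cd79a, Pax5, Cd3g, Cd8a and Ly6g were listed at 0 in both libraries. Of 7 dendritic cell markers 1 was detected, Batf3, and their summed TPM was 5.34 in replicate 1 and 2.81 in replicate 2.

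Rela (ENSMUSG00000024927.8, chr19:5637483-5648130, plus strand) encodes RelA, or p65, the partner of p50 in the classical NF-kB dimer. Its level was 9.44 TPM in replicate 1 and 10.2 TPM in replicate 2, from expected counts of 877 and 578. That gives 9.81 ± 0.53 TPM (SD, n = 2), with both values above the middle of the detected protein-coding genes, at their percentiles 58.8 and 56.1. Rel (ENSMUSG00000020275.9, chr11:23736847-23770970, minus strand) encodes c-Rel, a subunit known for roles in lymphocytes and in Il12b transcription by macrophages. It had 9.76 TPM in replicate 1 and 11.9 TPM in replicate 2, from expected counts of 2809 and 2395. Relb (ENSMUSG00000002983.17, chr7:19606217-19629438, minus strand) encodes RelB, the usual partner of p100 and p52 in the non-canonical pathway. It had 9.05 TPM in replicate 1 and 7.74 TPM in replicate 2, from expected counts of 740 and 463. The 3 genes for transactivating subunits thus lay between 7.74 and 11.9 TPM in all library values, near the median of detected protein-coding genes, which was 7.30 TPM in replicate 1 and 8.56 TPM in replicate 2.

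Nfkb1 (ENSMUSG00000028163.17, chr3:135584655-135691547, minus strand) was the highest of the family. It had 33.4 TPM in replicate 1 and 35.2 TPM in replicate 2, from expected counts of 3473 and 2557, or 34.3 ± 1.30 TPM (SD, n = 2). These levels stood at percentiles 89.2 and 88.8 of the detected protein-coding genes. Nfkb2 (ENSMUSG00000025225.15, chr19:46304320-46312385, plus strand) came next. It had 16.2 TPM in replicate 1 and 13.5 TPM in replicate 2, from expected counts of 1844 and 1016, or 14.8 ± 1.93 TPM (SD, n = 2). The levels of the 5 genes added up to 77.8 TPM in replicate 1 and 78.5 TPM in replicate 2, and the pair of precursor genes made up the larger part of both sums.

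**Figure D1:**
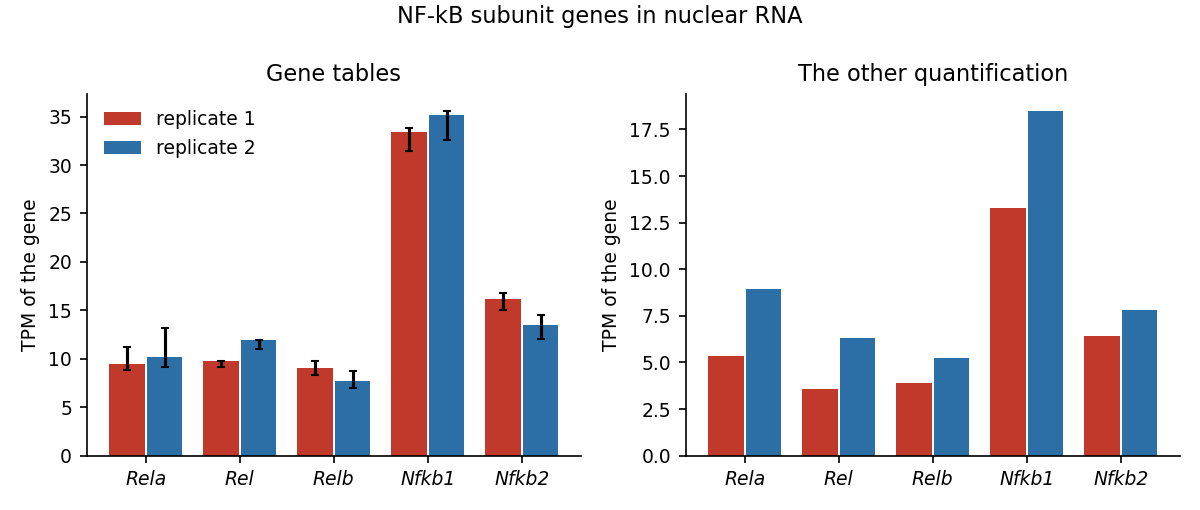
Gene TPM of the 5 subunits in replicate 1 and replicate 2, from the gene tables on the left with the authors' credibility bounds as error bars, and from the other deposited quantification on the right. Nfkb1 is highest in all 4 sets of bars, at 33.4 and 35.2 TPM on the left and 13.3 and 18.5 TPM on the right.

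The order by TPM was Nfkb1, Nfkb2, Rel, Rela and Relb in both libraries. The Nfkb1 and Nfkb2 values did not overlap, nor did those of Nfkb2 and Rel. Rel and Rela overlapped, with 9.76 and 11.9 TPM for Rel beside 9.44 and 10.2 TPM for Rela, so their order was within the spread of the libraries. Rela and Relb did not overlap over the libraries, but in replicate 1 the authors' credibility bounds did, at 8.86 to 11.2 TPM for Rela and 8.31 to 9.80 TPM for Relb. A second deposited table per library, called the other quantification here, holds an estimated count and a TPM per transcript. It also put Nfkb1 first, at 13.3 TPM in replicate 1 and 18.5 TPM in replicate 2. The places below Nfkb1 changed there. Nfkb2 had 6.43 and 7.82 TPM in replicates 1 and 2 and Rela 5.33 and 8.94 TPM, so Rela stood above Nfkb2 in replicate 2. Relb had 3.91 and 5.24 TPM and Rel 3.58 and 6.30 TPM, with Rel last in replicate 1 and Relb last in replicate 2.

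The transcripts behind these levels differed between the genes. Rel has 1 annotated transcript, Rel-201, with 10 exons and 588 coded residues, so 100% of its TPM was a complete protein-coding form. Nfkb2 was nearly as uniform by annotated class, with 95.8% of its TPM in replicate 1 and 87.6% in replicate 2 on 4 complete protein-coding transcripts. Rela-201, the complete form of Rela with 549 coded residues, held 8.53 TPM in replicate 1 and 7.81 TPM in replicate 2, or 90.3% and 76.7% of the gene. The next largest share was that of Rela-203, annotated as a retained intron, at 5.11% in replicate 1 and 23.4% in replicate 2. These shares came from expected counts of only 10.9 and 37.3, and the credibility bounds of Rela-203 overlapped between the libraries, at 0.0321 to 1.46 TPM and 0.697 to 3.89 TPM. Rela-205, a coding form with an incomplete annotation, had 0.17 TPM in replicate 1 and was listed at 0 in replicate 2. The other quantification gave Rela-201 a smaller share, 52.2% in replicate 1 and 40.4% in replicate 2.

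Relb was more mixed. Relb-202, which encodes 558 residues, held 5.48 TPM in replicate 1 and 4.47 TPM in replicate 2, or 60.6% and 57.7% of the gene, and the other complete forms Relb-201 and Relb-203 were listed at 0. The other quantification assigned Relb-201 13.7% and Relb-203 5.13% in replicate 2, so these zeros do not show absence. There Relb-202 held 37.8% in replicate 1 and 13.9% in replicate 2. The 3 retained-intron transcripts of Relb held 23.1% in replicate 1 and 30.5% in replicate 2. Relb-206 led them in the gene and transcript tables with 17.3% and 25.4%, and Relb-208 had 5.77% and 5.10%. In the other quantification Relb-206 had 13.7% in replicate 1 and 2.18% in replicate 2, and Relb-208 had 11.3% and 20.3%, so Relb-206 did not lead there in replicate 2. Relb-210, annotated for nonsense-mediated decay, had 8.71% and 4.69%. The incomplete coding form Relb-209 had 6.04% and 2.22%, and Relb-207 was listed at 0. For Relb-206 the count assigned in replicate 1 was 184 with an SD of 39.1 from assigning reads among transcripts, so its share is known less well than the gene's level.

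Nfkb1 differed most from a single-transcript picture. Retained-intron transcripts held 17.5 TPM in each library, 52.5% of the gene in replicate 1 and 49.5% in replicate 2. Complete protein-coding transcripts held 8.02 TPM in replicate 1 and 8.44 TPM in replicate 2, which is 24.0% of the gene in both. All of this came from Nfkb1-206, which runs from exon 3 to exon 25 and encodes the 971 residues of p105. Nfkb1-201, which encodes the same length and includes exons 1 and 2, was listed at 0 in both libraries. The other quantification gave Nfkb1-201 an estimated count of 268 in replicate 1 and 467 in replicate 2, so the 0 is an assignment by one method and does not show absence.

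**Figure D2:**
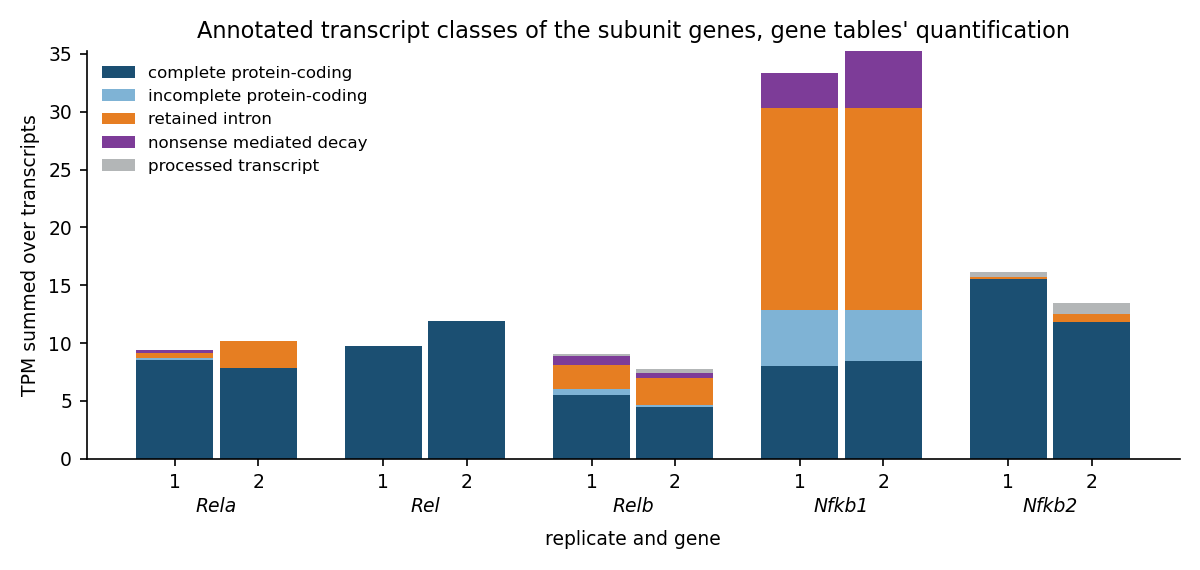
TPM of each subunit gene split by annotated transcript class, with replicate 1 left of replicate 2. Rel is wholly and Nfkb2 almost wholly complete protein-coding, while retained-intron transcripts hold 17.5 TPM of Nfkb1 in each library.

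The largest single Nfkb1 transcript was Nfkb1-204, a retained-intron form that covers exons 1 to 12 and runs on into intron 12, with 1825 bases outside the coding transcripts' exons. It had 8.46 TPM in replicate 1 and 8.99 TPM in replicate 2, with count SDs of 18.1 and 16.1 beside counts of 1063 and 788. The single-exon Nfkb1-208, which is exon 8 with 3985 bases outside the coding transcripts' exons, had 2.36 and 3.01 TPM. Nfkb1-210, exon 16 with 1859 such bases, had 3.56 and 3.66 TPM. The retained-intron form Nfkb1-202, the incomplete coding form Nfkb1-203 and the nonsense-mediated decay form Nfkb1-207 all lie between exon 13 and exon 25. Nfkb1-202 had 3.16 TPM in replicate 1 and 1.79 TPM in replicate 2. Nfkb1-203 had 4.84 and 4.41 TPM, and Nfkb1-207 had 2.96 and 4.93 TPM. Several of these forms therefore do not share bases, and the gene's TPM, a sum over all of them, is larger than the level over any one exon.

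Summed over the transcripts that cover it, exon 1 of Nfkb1 stood at 8.46 TPM in replicate 1 and 8.99 TPM in replicate 2. Exons 3 to 12, apart from exon 8, stood at 16.5 and 17.4 TPM, and exons 13 to 15 at 16.0 and 14.6 TPM. The highest was exon 16, at 22.5 and 23.2 TPM, and the last exon had 11.0 and 11.1 TPM. In these tables the profile was alike in both libraries, lowest at exons 1 and 2 and highest at exon 16. Its highest value was 67.5% of the gene's TPM in replicate 1 and 66.0% in replicate 2. For the median of 9443 detected protein-coding genes this share was 99.9% in replicate 1 and 100% in replicate 2, and 3.22% of those genes had a lower mean share than Nfkb1. For Rel, Relb and Nfkb2 it was 100% in both libraries. At its highest base Nfkb1 stood above the 16.2 and 13.5 TPM that Nfkb2 had at its own highest base. At exons 1 and 2 and at its last exon Nfkb1 stood below those Nfkb2 values in both libraries. In replicate 1 exon 24 of Nfkb1, at 14.1 TPM, was also below the 16.2 TPM of Nfkb2. Exons 13 to 15 and exon 22, at 16.0 TPM, were slightly below it. In the other quantification the lowest was exon 25, at 3.92 and 5.54 TPM, and the highest was exon 16 in replicate 1, at 8.08 TPM, and exon 8 in replicate 2, at 11.7 TPM.

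**Figure D3:**
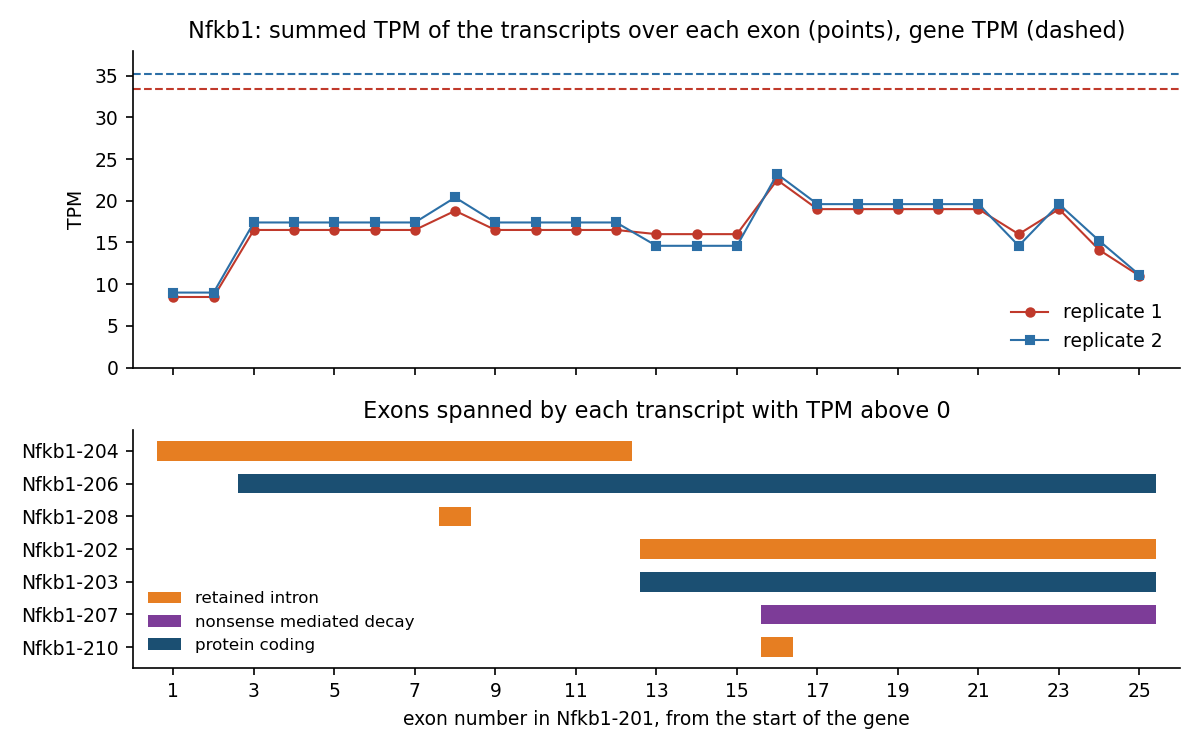
Upper panel, TPM summed over the Nfkb1 transcripts that cover each exon of Nfkb1-201 (median over the exon's bases) in replicates 1 and 2, with the gene's TPM dashed. Lower panel, the exons that each transcript with a TPM above 0 spans, coloured by annotated class. The exon levels reach 22.5 and 23.2 TPM and stay below the gene's 33.4 and 35.2 TPM.

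Restricted to complete protein-coding transcripts, Nfkb1 was no longer first, and Nfkb2 led in replicate 1 and Rel, narrowly, in replicate 2. Nfkb2 then had 15.5 TPM in replicate 1 and 11.8 TPM in replicate 2, Rel 9.76 and 11.9 TPM, Rela 8.53 and 7.81 TPM, Nfkb1 8.02 and 8.44 TPM, and Relb 5.48 and 4.47 TPM. The values of Nfkb2 and Rel overlapped, as did those of Rela and Nfkb1, and Relb was lowest in both libraries. On the same restriction the other quantification put Nfkb2 first in both libraries, at 5.70 and 6.63 TPM, and Relb last, at 1.48 and 1.71 TPM. Nfkb1 then had 3.12 and 5.22 TPM beside 3.58 and 6.30 TPM for Rel and 2.78 and 3.61 TPM for Rela. Rel has 1 annotated transcript, so the restriction could not lower its level, and its place beside the other genes depends on the annotation. This restriction was chosen after the values were seen.

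Among 5972 genes with both a protein-coding and a retained-intron transcript, the median gene had 26.7% of its TPM on retained-intron transcripts. The mean shares of Nfkb1, Relb, Rela and Nfkb2 were 51.0% ± 2.14, 26.8% ± 5.25, 14.2% ± 12.9 and 3.29% ± 2.95 (SD, n = 2 each). They stood at percentiles 85.7, 50.2, 24.4 and 4.74 of those genes. By annotated class the family spanned most of the range, with the precursor genes Nfkb1 and Nfkb2 at its opposite ends and Relb at the median. The class is a label and not a measure of intron content. Nfkb2-206, a complete protein-coding form, covers the whole of intron 22 of Nfkb2-201. It had 11.5% of the gene's TPM in replicate 1 and 11.1% in replicate 2. None of the retained-intron forms of Nfkb1 and Relb covers a whole intron of Nfkb1-201 or Relb-202. In the other quantification the share of Nfkb1 was 59.2% in both libraries, and that of Nfkb2 was 2.48% in replicate 1 and 7.47% in replicate 2.

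Nfkb2 has 4 complete protein-coding transcripts with 2 groups of starts. Nfkb2-206, Nfkb2-201 and Nfkb2-204 start between 46304320 and 46304800 on chromosome 19, in or near the upstream window, and Nfkb2-202 starts at 46305696, 1 base from the RefSeq start of the downstream window. Nfkb2-201 had 5.09 TPM in replicate 1 and 5.47 TPM in replicate 2, Nfkb2-206 had 1.87 and 1.49 TPM, and Nfkb2-204 had 0.55 and 0.81 TPM. The upstream group summed to 7.51 TPM in replicate 1 and 7.77 TPM in replicate 2, nearly equal levels. Nfkb2-202 had 8.01 TPM in replicate 1 and 4.02 TPM in replicate 2, and its credibility bounds did not overlap, at 6.51 to 9.17 TPM and 2.80 to 4.94 TPM. The downstream start thus held 51.6% of the complete coding TPM in replicate 1 and 34.1% in replicate 2. In the other quantification it held 62.7% and 50.9%, also higher in replicate 1 but at TPM levels of 3.58 and 3.38 that lay close together. The shorter forms Nfkb2-203, a processed transcript, and Nfkb2-207, a retained-intron form, had at most 0.95 TPM each. Grouping by start was chosen after the values were seen.

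Annotated genes overlap both precursor genes. Gm43430, a locus awaiting experimental support on the same strand, lies inside Nfkb1 (chr3:135650670-135654566) and had 4.52 TPM in replicate 1 and 4.67 TPM in replicate 2. AC114539.1, a long noncoding RNA gene on the opposite strand with 1292 bases of its span within Nfkb2, had 7.29 and 5.48 TPM. Psd, also on the opposite strand, shares 299 bases with the 3′ end of Nfkb2 and had 4.46 and 3.19 TPM. Whether counting used the strand is not given in the sources used here, so reads of Nfkb2 and of these opposite-strand genes cannot be told apart where they overlap.

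Between the libraries the 5 genes differed by less than 2-fold. The log2 ratio, replicate 1 over replicate 2 on TMM-scaled counts, was 0.59 for Nfkb2 (95% counting interval 0.47 to 0.70), from 79.8 CPM in replicate 1 and 53.2 CPM in replicate 2. It was 0.40 for Relb (0.23 to 0.57) and 0.33 for Rela (0.17 to 0.48). It was 0.17 for Nfkb1 (0.09 to 0.24) and −0.04 for Rel (−0.12 to 0.04). CPM is a count scaled to a fixed library total, not per length, and the intervals cover counting error alone. None of the 5 members passed 2-fold, beside 4.06% of the 11761 genes whose mean count reached 50, 353 of them higher (3%) and 124 lower (1.05%) in replicate 1. With total counts as the scale 227 genes were past 2-fold higher and 249 lower in replicate 1, with TPM as deposited 182 and 435, and in the other quantification 467 and 466 of 17536. The ratios of 9995 protein-coding genes ran from −0.74 to 1.01 between their 2.5 and 97.5 percentiles, and all 5 members lay within that range, from percentile 44.8 for Rel to 91.1 for Nfkb2.

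These ratios compare 1 library with 1 library. An exact test that swaps the labels of the 2 libraries can give no one-sided p below 0.5, and none was made. In bulk RNA, fewer cells with the transcript and less transcript per cell cannot be told apart. Nfkb2 and Relb were higher in replicate 1 under each of the 7 scalings compared. Rela and Nfkb1 were higher in replicate 1 on scaled counts but lower by TPM as deposited, at −0.11 and −0.08, and Nfkb1 was at 0.00 on total counts. On that TPM scale the median of protein-coding genes was itself at −0.24, and on total counts at −0.17. Relative to the first of these medians Rela stood at 0.13 and Nfkb1 at 0.16. Rel was at or below 0 under all 7 scalings, from −0.29 by TPM as deposited to −0.00 in the other quantification.

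**Figure D4:**
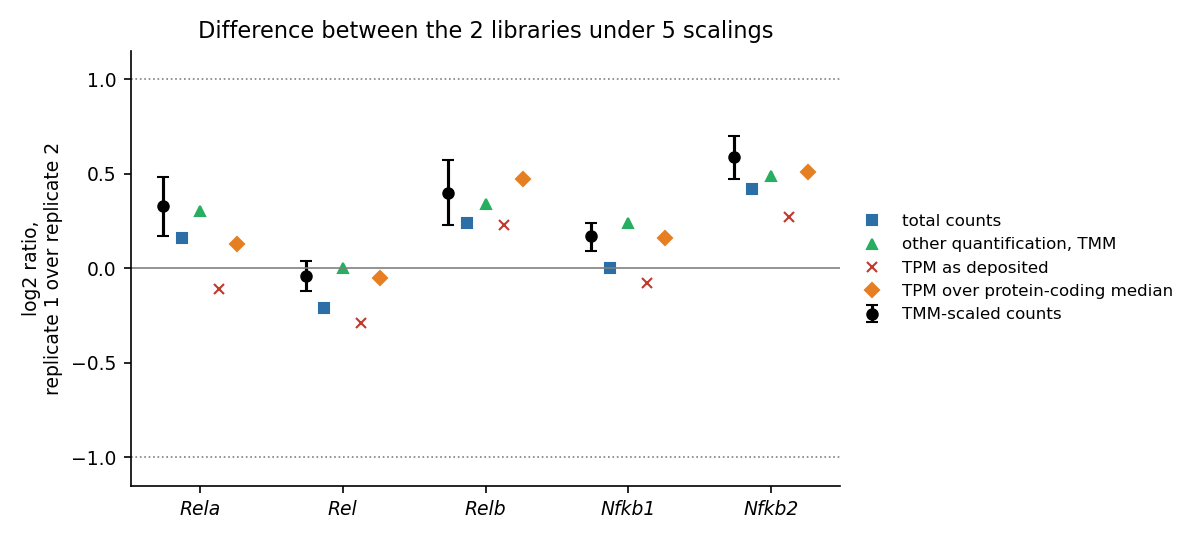
Log2 ratio of replicate 1 over replicate 2 for each subunit gene under 5 scalings, with 95% counting intervals on the TMM-scaled counts and dotted lines at 2-fold. All points lie within 2-fold, with Nfkb2 highest at 0.59 and Rel lowest at −0.04 on TMM-scaled counts.

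The members share some features of structure that the choice by symbol did not use. Their spans run from 8066 bases for Nfkb2 to 106893 bases for Nfkb1, while the coded lengths fall into 2 classes, 549 to 588 residues for RelA, RelB and c-Rel and 878 to 971 residues for p100 and p105. A single exon length was common to the complete coding transcripts of all 5 genes. It was found by comparing the exons of these members, and 6.88% of 21809 protein-coding genes have an exon of that length. Because the length was picked for being in all 5 members, that share cannot tell whether the match is unusual. The members also share the Rel homology domain, so they are not independent of each other. In Rel-201 the exon of this length follows exons of 149, 92 and 141 bases and precedes 1 of 213 bases. In Rela-201 it follows exons of 149, 92 and 132 bases and again precedes 1 of 213 bases, and in Relb-202 it follows exons of 92 and 132 bases and precedes 1 of 216 bases. The precursor genes do not share that order. In Nfkb1-201 the exon follows 1 of 159 bases and precedes 1 of 92 bases, and in Nfkb2-201 it follows 1 of 159 bases and precedes 1 of 86 bases.

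The protein-coding gene with the most similar pair of levels, by distance in log2(TPM + 1) over both libraries, was Hyal1 for Rel (distance 0.007), Otub1 for Rela (0.016), Cinp for Relb (0.010), Arl5c for Nfkb1 (0.022) and Card9 for Nfkb2 (0.033). With 2 libraries such nearness is common. Between 26 genes for Nfkb2 and 92 genes for Rel lay within 0.1 of a member.

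Of the other genes of the pathway, those that hold NF-kB back were all detected, 10 of 10 in the list of IkB proteins and related inhibitors, with a median of 7.57 TPM. Nfkbia, which encodes IkBα and is itself an NF-kB target, had 66.3 TPM in replicate 1 and 33.3 TPM in replicate 2, and was the 1 gene of the list past 2-fold, at a log2 ratio of 1.22 (1.13 to 1.32). Nfkbiz, encoding the nuclear IkBζ, had 15.4 and 14.1 TPM, and Nkiras2, an inhibitor of IkB degradation, had 12.6 and 12.5 TPM. All 15 genes of the list of IKK subunits, upstream kinases and factors of precursor processing were detected, with a median of 14.9 TPM and 0 past 2-fold. The highest by mean TPM were Birc3, a ubiquitin ligase of the non-canonical arm, at 45.9 and 33.9 TPM, Map3k8, the kinase Tpl2 that is held by p105, at 42.4 and 36.6 TPM, and Tnfaip3, encoding the inhibitor A20, at 37.9 and 30.5 TPM. Chuk, which encodes the kinase IKKα and is named after its values were seen, had 28.3 TPM in replicate 1 and, at 37.0 TPM, the highest level of the list in replicate 2. All 14 nuclear co-regulators of RelA were detected as well, with a median of 15.9 TPM and 0 past 2-fold. Of all protein-coding genes 42.9% were detected. Only 4.06% of the 11761 genes compared above passed 2-fold, so lists as short as these can hold none without standing out. Ncor1, a co-repressor, had 57.6 and 74.8 TPM, Cdk9, the kinase of P-TEFb, 49.6 and 59.4 TPM, and Ep300, an acetyltransferase of RelA, 41.1 and 46.8 TPM.

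Of 32 textbook NF-kB target genes 27 were detected. The median over all 32 was 32.3 TPM, beside 7.98 TPM over the detected protein-coding genes. The highest by mean TPM were Saa3, an acute-phase protein, at 1683 TPM in replicate 1 and 508 TPM in replicate 2, Ccl5, a chemokine, at 686 and 255 TPM, and Cxcl10, another chemokine, at 266 and 95.5 TPM. The 5 not detected were Mmp9, Ccl22, Il6, Il12b and Cxcl1. Il6 had 0.52 TPM in replicate 1 and 0.31 TPM in replicate 2, and Il12b, the known c-Rel target, had 0.60 and 0.57 TPM. Of the 31 targets whose mean count reached 10, 7 were past 2-fold higher in replicate 1 and 1 was past 2-fold lower. Over the 11761 genes whose mean count reached 50, these shares were 3% and 1.05%. Nos2, encoding inducible nitric oxide synthase, had the largest ratio at 2.02 (1.78 to 2.28), then Saa3 at 2.00 and Cxcl10 at 1.74. The 1 lower gene was Cxcl1, a chemokine named after its values were seen, at −1.69 with 0.60 TPM in replicate 1 and 2.11 TPM in replicate 2.

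**Figure D5:**
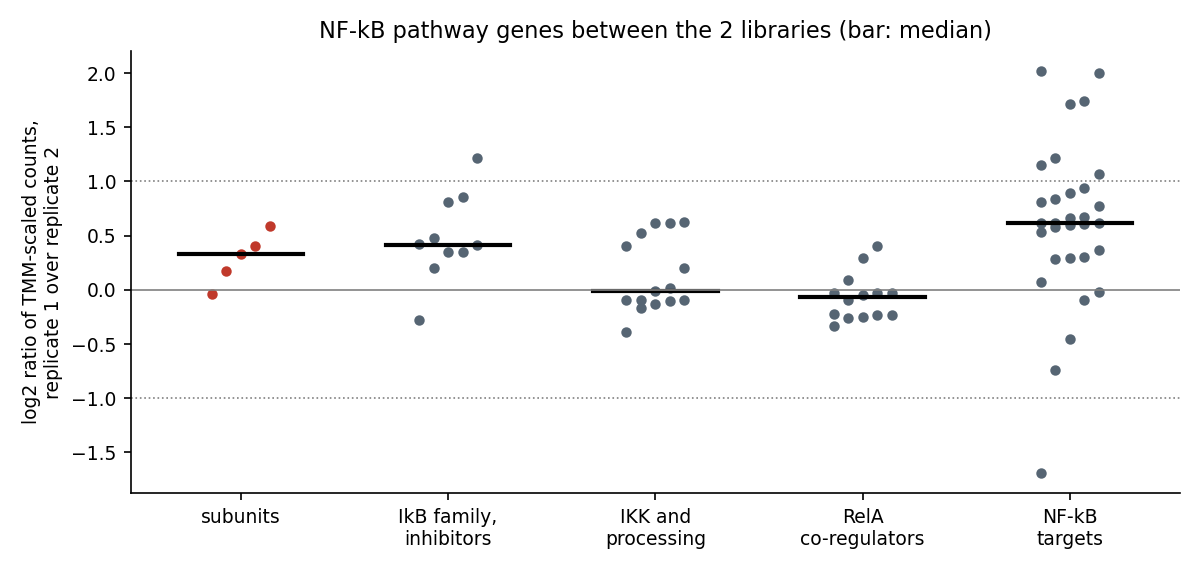
Log2 ratio of replicate 1 over replicate 2 for the 5 subunits and for genes of 4 pathway lists whose mean count reached 10, with a bar at each median and dotted lines at 2-fold. The medians are 0.33 for the subunits, 0.42 for the IkB list, −0.01 for the IKK list, −0.07 for the co-regulators and 0.62 for the targets.

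The median log2 ratio was 0.62 over the targets, 26 of 31 being above 0, and 0.33 over the 5 subunits. Under the 7 scalings the median of the targets stayed between 0.43 and 0.67 and that of the IkB list between 0.19 and 0.43, while that of the subunits turned to −0.08 by TPM as deposited. The lists are not independent, because the target list shares Nfkbia and Nfkbie with the IkB list and Birc3 and Tnfaip3 with the IKK list. The list medians of the IKK genes and of the co-regulators were −0.01 and −0.07. Over the same scalings that of the IKK genes ran from −0.18 on total counts to 0.11 relative to the protein-coding median of TPM, and that of the co-regulators from −0.38 by TPM as deposited to −0.00 in the other quantification. Medians above 0 were also found in lists of other genes, at 0.50 for AP-1, 0.25 for IRF and 0.26 for STAT genes. The median of macrophage markers was 0.27, and 12 of 13 were above 0. The AP-1 list was mixed, with 7 of 10 genes above 0 but 3 past 2-fold lower in replicate 1 and 1 past 2-fold higher. Those lower were Fosb at −4.36, Fos at −1.47 and Fosl2 at −1.23, and the 1 higher was Batf at 1.30. The IRF list had 1 gene past 2-fold lower, Irf4 at −1.60, and 1 past 2-fold higher. Fosb, Fosl2 and Irf4 did not count as detected. Dendritic cell markers had a summed TPM of 5.34 in replicate 1 and 2.81 in replicate 2. Their part in these differences was not tested. For comparison, 7 of 9 IRF genes, 7 of 11 AP-1 genes and 6 of 7 STAT genes were detected, and the medians over all genes of these lists were 34.7, 10.6 and 24.2 TPM. These counts stand beside 5 of 5 for the NF-kB subunits, at a median of 10.8 TPM, with no test of the difference.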

How the data were processed

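Total RNA-seq tables were deposited for 2 libraries of 1 group. Per the file headers, the authors' tables hold an expected count and a TPM per gene and transcript, the percent of the gene's TPM per transcript, an SD of the assigned count and TPM credibility bounds of unstated level. A second deposited transcript table holds an estimated count and a TPM. The aligner, quantifiers and strandedness were not given in the sources used here. GENCODE M21 on mm10 gave the symbols, types and coordinates. Entries that name no gene (1.06% and 0.245% of counts in replicates 1 and 2) were left out.

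Expected counts were rounded and scaled with edgeR 4.0.16 in R 4.3.3 (TMM, from genes whose mean count reached 10, factors 0.945 and 1.06). Ratios are replicate 1 over replicate 2 with 0.5 added and an exact 95% conditional counting interval, and no test was made. DESeq2 1.42.0 size factors, total counts, TPM, other thresholds and the other quantification were alternatives. The computations, in Python 3.11.15, were tested on simulated data. Named were all 5 members, their transcripts that are coding or reach 5% of the gene's TPM, each member's nearest gene, overlapping genes, and per pathway list the 3 highest, up to 4 undetected and up to 3 past 2-fold. The members and lists were chosen with earlier results of these data known.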

Additional observations from a re-analysis of the deposited data

How the results depend on the processing

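Detection of all 5 subunits and the absence of a subunit past 2-fold held under every alternative threshold, scaling and quantification tried, except that 1 subunit, Nfkb2, passed a lower limit of 1.5-fold. The median subunit level of 10.8 TPM ran from 9.76 to 11.9 without either replicate. It was 6.58 TPM in the other quantification, 51.2 TPM when rescaled over protein-coding genes and 66.5 CPM, which does not divide by length, units that differ by construction, and 8.23 TPM on complete protein-coding transcripts, an alternative chosen after seeing the data. The median log2 ratio of 0.33 was 0.16 on total counts, 0.16 by TPM relative to the protein-coding median, and reversed to −0.08 by TPM as deposited. Rela reversed to −0.11 and Nfkb1 to −0.08 on that scale, where the protein-coding median was −0.24. The count of 477 genes past 2-fold was 933 in the other quantification, 1303 at a mean count of at least 10 and 6435 with no filter, the last 2 of which add genes of low counts. The retained-intron share of Nfkb1, 51.0%, was 49.5% to 52.5% without either replicate, 59.2% in the other quantification and 56.0% of expected counts. The cause of the differences between quantifications was not tested. No paired analysis was possible because both libraries belong to 1 group. With 1 library on each side, spread between cultures and technical spread cannot be told apart, and transcript shares rest on reads that several transcripts could have given.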
